A study of Homo sapiens with 6 samples.

Results

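Oxidative phosphorylation genes, the nuclear genes for complexes I to V of the mitochondrial respiratory chain and for factors named after them that assist their assembly, were mostly higher in MDA-MB-231 cells upon miR-138 knockdown. Of 96 such genes tested, 57 (59.4%) were called higher and 8 (8.33%) lower in antagomiR-138 cells than in scrambled control cells. Of all genes tested, 30.9% were called higher and 29.1% lower. The shifts of the set were small, with a median log2 fold change of 0.23, and they were unevenly spread over the complexes. Higher genes made up 65.7% of complex I, 66.7% of complex V, 68.4% of the assembly factors of these names and 55.6% of complex III. In complex IV the share was 25% and the median stayed near 0, and in complex II 1 of 3 genes was higher. Each class also held at least 1 gene called lower. In complex V this was ATP5F1D alone, with probes of opposite direction. In complex III it was UQCRC2 alone, whose call was lost under 9 of 18 alternatives. With each gene's probes averaged, the median of complex III was -0.00422. Of 33 assembly factors with other names, 33.3% were higher and 24.2% lower.

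The genes were chosen by their symbols, with earlier results of these data known. A probe belonged to the set if its annotated gene symbol began with NDUF, SDHA (SDHAF1 to SDHAF4 included), SDHB, SDHC, SDHD, UQCR, ATP5 or COX followed by a digit, or was CYC1, and if the gene was not a pseudogene. This gave 104 genes on 145 probes, out of 20046 named genes and 47322 probes on the arrays. A further 24 probes with matching letters belonged to pseudogenes and 1 to the antisense RNA NDUFB2-AS1, and these were left out. A gene entered the test when 1 or more of its probes exceeded background, taken as a detection p under 0.05, on 3 or more arrays, which held for 96 of the 104 genes. Of the 8 genes that did not enter, NDUFS6, COX4I2, COX6A2, COX7A1, COX8C, COX18 and NDUFAF8 were above background on none of the arrays, and COX6B2 was above background on 1 antagomiR-138 array and 1 scrambled control array. SDHB, UQCRFS1, NDUFA4 and the subunits encoded by mitochondrial DNA were not analysed here.

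MDA-MB-231 is a human basal breast cancer line. The tested cells had been transduced with a lentivirus expressing antagomiR-138 (antimiR-138 in the sample labels), an RNA complementary to miR-138, and the scrambled control cells with a lentivirus expressing a scrambled sequence. All cultures received 6 transduction units in medium with serum and were harvested 72 h later, on day 3, and total RNA from 3 samples of each kind was hybridised to Illumina expression arrays. Both RNAs were made from the constitutive RNA polymerase III promoter H1 of the miRZip vector, so every culture carried a lentivirus and none was untransduced. Nothing in the labels tells whether replicates were separate cultures, so the p-values refer only to the variation among these 6 samples, and that variation may be technical. The arrays read messenger RNA of whole cultures, in which a change in the share of cells that express a gene and a change in its RNA per cell cannot be told apart. The level of miR-138 itself was not analysed here.

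Oxidative phosphorylation couples the oxidation of NADH and succinate to the synthesis of ATP in the inner mitochondrial membrane. Complexes I and II pass electrons to ubiquinone, complex III passes them on to cytochrome c, complex IV hands them to oxygen, and complexes I, III and IV pump protons that drive ATP synthesis by complex V. Complex II is the only one whose subunits are all encoded in the nucleus. The others join nuclear and mitochondrial gene products with the help of assembly factors that insert flavins, iron-sulfur clusters, haem and copper or hold partly built modules together.

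The RNA that was blocked and the promoters of some of the genes measured are shown for reference, as RefSeq gives them on GRCh38.p14. Mature miR-138-5p has 23 bases and is encoded at 2 loci, MIR138-1 at chr3:44114234-44114256 and MIR138-2 at chr16:56858527-56858549, both on the plus strand. Its seed, bases 2 to 8 from the 5′ end, is in capitals.
hsa-miR-138-5p: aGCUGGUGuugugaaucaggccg

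Promoters of oxidative phosphorylation genes are known for sites of the nuclear regulators NRF1, GABPA (an ETS factor) and YY1. A link of such sites to the changes in these cells was not tested. In windows reaching from 250 bases before to 50 bases after the start site, available for 87 of the 104 genes, both strands were searched for GCATGCGC (the core of the NRF1 motif), CCGGAAG (GABPA/ETS) and AAGATGGC (YY1). The NRF1 core was found in 17 of the 87 promoters (19.5%), against 3.27% of 27305 promoters of all genes and 5.64% of the 9222 promoters of genes tested. The GABPA/ETS letters were found in 25 of the 87 (28.7%), against 10.7% of all promoters and 19.5% of those of genes tested. The YY1 letters were found in 11 of the 87 (12.6%), against 3.03% and 5.49%. Split by response, the NRF1 core stood in 7 of 47 promoters of genes that were higher (14.9%), in 8 of 27 promoters of genes that did not pass the test (29.6%) and in none of 7 promoters of genes that were lower. The GABPA/ETS letters stood in 14 of the 47 (29.8%), 10 of the 27 (37.0%) and 1 of the 7 (14.3%), and the YY1 letters in 7, 4 and 0. A match to such letters describes the sequence and does not show that a factor binds there.

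Stretches of 80 bases are printed for 5 genes that carry the letters, 3 that rose and 2 that did not pass the test, with matches on either strand in capitals. ATP5ME (chr4:674277-674356, minus strand), NDUFA1 (chrX:119871752-119871831, plus strand) and SDHAF2 (chr11:61430022-61430101, plus strand) rose. SDHD (chr11:112086763-112086842, plus strand) and COX6A1 (chr12:120437895-120437974, plus strand) did not pass. In ATP5ME and COX6A1 the capitals mark the NRF1 core, in NDUFA1 the GABPA/ETS letters, and in SDHAF2 and SDHD both. In SDHAF2 the first run of capitals is a GABPA/ETS match and an NRF1 core that overlap.
ATP5ME: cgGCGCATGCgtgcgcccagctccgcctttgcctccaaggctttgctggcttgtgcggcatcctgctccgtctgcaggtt
NDUFA1: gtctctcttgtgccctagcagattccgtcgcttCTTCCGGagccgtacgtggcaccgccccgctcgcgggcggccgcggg
SDHAF2: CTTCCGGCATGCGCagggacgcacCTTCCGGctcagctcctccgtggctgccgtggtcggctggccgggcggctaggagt
SDHD: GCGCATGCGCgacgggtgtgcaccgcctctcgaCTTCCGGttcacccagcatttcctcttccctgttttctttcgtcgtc
COX6A1: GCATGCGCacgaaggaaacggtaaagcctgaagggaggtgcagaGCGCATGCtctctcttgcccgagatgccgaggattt

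All levels below are log2 array signals after background correction and quantile normalization, and each gene is represented by the entering probe with the highest mean signal. Signals were compared between samples for the same probe and not between genes. On the 6 arrays 19263 to 20430 probes (40.7 to 43.2%) were above background. Correlations over probes were 0.996 within groups and 0.962 to 0.964 between groups, and no 2 arrays held identical values. The cells carried the markers of their line, with VIM, CD44, MSN, CAV1, AXL, EGFR and PLAU above background on all 6 arrays. The summed log2 signal of these line markers was 91.46 to 91.63 in antagomiR-138 cells and 93.65 to 93.76 in scrambled control cells. EGFR averaged 9.09 against 10 in the controls and AXL 12.94 against 13.74, while MSN was higher (13.16 against 12.74). The HER2 gene ERBB2, above background on all 6 arrays, averaged 9.02 in antagomiR-138 cells and 10.17 in scrambled control cells. Of 7 luminal markers, ESR1, PGR and FOXA1 were above background on none, CDH1 on 1, KRT18 on 5 and GATA3 and KRT8 on all 6. KRT8 averaged 10.87 in antagomiR-138 cells and 12.04 in scrambled control cells, and the summed log2 signal of the 7 was 41.21 to 42.06 in antagomiR-138 cells and 43.08 to 43.65 in scrambled control cells. Of 5 fibroblast markers, COL1A2 and PDGFRB were above background on all 6 arrays, and the summed log2 signal of the 5 was 32.93 to 33.96 in antagomiR-138 cells and 31.19 to 31.49 in scrambled control cells. COL1A2 was higher (9.49 against 7.61) and PDGFRB lower (6.15 against 7.85) in antagomiR-138 cells. The defining leukocyte markers PTPRC and CD3E were above background on none of the arrays, and CD68, also on that list, was on all 6 (11.78 in antagomiR-138 cells and 12.43 in scrambled control cells). The part of these marker differences in the results was not tested.

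The comparison asked what 3 days of miR-138 knockdown did to these transcripts. A change anywhere was common. With limma and Benjamini-Hochberg adjustment over all 11426 genes tested (adjusted p under 0.05), 60.1% of all genes were called, 30.9% higher and 29.1% lower in antagomiR-138 cells. Of the oxidative phosphorylation genes 67.7% were called, not far from that share, but in unequal directions, with 57 of 96 higher (59.4%) and 8 lower (8.33%), while 31 did not pass. The count of lower genes was 5 without scrambled control replicate 3. The median log2 fold change was 0.23 for these genes and 0.02 for all genes tested. Counted by sign alone, 74 of the 96 values were above 0 and 22 below. The 3 antagomiR-138 samples and the 3 scrambled control samples did not overlap for 60 genes that were higher and 9 that were lower, where 66.6% of all genes tested did not overlap.

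The changes were modest in size. They ranged from -1.0 for NDUFAF3 to 1.0 for ATP5MJ. Of the 96 genes, 15 were both called and changed at least 1.5-fold, 12 higher and 3 lower, where 25.1% of all genes tested met both terms. Of all 11426 genes tested, 1297 met both terms as higher and 1576 as lower. The share of the set that was higher on these terms was thus near that of all genes, and the share that was lower was below it. The genes gave precise values, with a median standard error of 0.0634 on the log2 scale against 0.0783 for all genes tested, and a median SD between replicates of 0.0573 against 0.0881. Since a strong signal makes a call easier, the shares were also taken over the 3283 genes tested whose signal lay between the quartiles of the set (log2 signals of 9.78 and 12.55). There, 36.5% were called higher and 31.9% lower, with a median of 0.04.

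**Figure D1:**
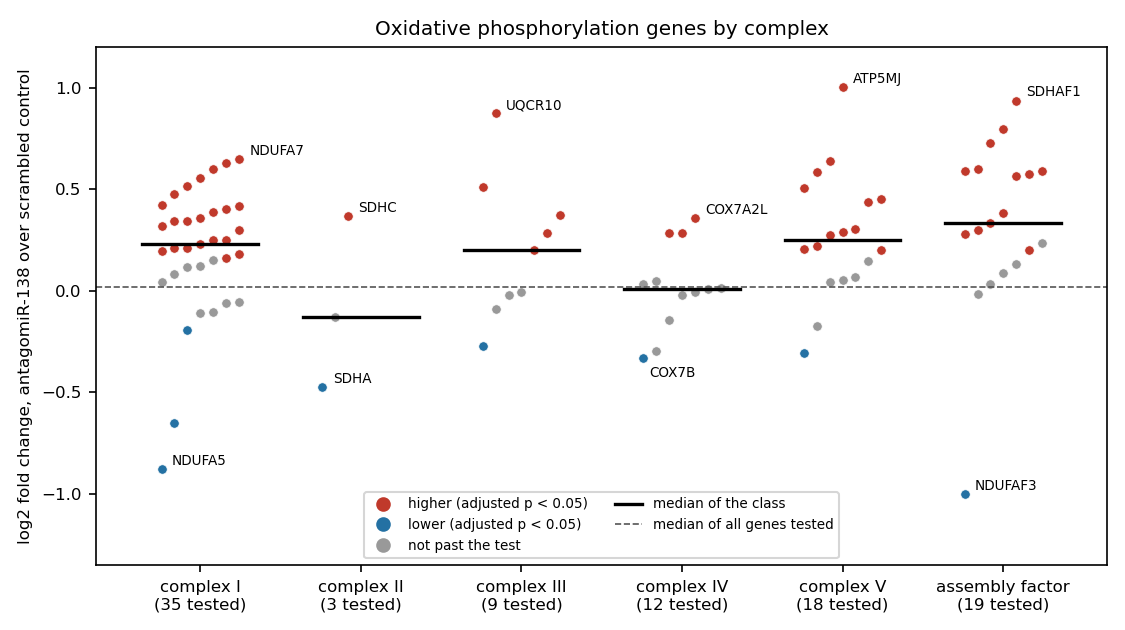
Log2 fold change of antagomiR-138 over scrambled control cells for each of the 96 genes tested, by class, with 3 samples a group. Each point is a gene, coloured by its call (limma, adjusted p under 0.05), and spread sideways only for legibility. Black bars are class medians and the dashed line is the median of all genes tested (0.02). The medians of complexes I, III and V and of the assembly factors lie above the dashed line, that of complex IV lies on it, and that of complex II lies below it.

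The classes differed in their medians. The assembly factors stood at 0.33 (19 tested), complex V at 0.25 (18 tested), complex I at 0.23 (35 tested), complex III at 0.20 (9 tested), complex IV at 0.01 (12 tested) and complex II at -0.13 (3 tested). Expressed as the median difference from the scrambled control mean in each sample, the assembly factors were at 0.35, 0.35 and 0.36 in the antagomiR-138 samples and at -0.03, 0.03 and -0.01 in the scrambled control samples. Complex V was at 0.27, 0.24 and 0.25 in the antagomiR-138 samples and at -0.01, 0.01 and 0.01 in the controls. Complex I was at 0.23, 0.26 and 0.21 in the antagomiR-138 samples and at -0.03, 0.03 and -0.00 in the controls. In each of these 3 classes all antagomiR-138 samples lay above all controls. Complex V and complex I overlapped each other, as did complex I and complex III (0.17, 0.20 and 0.23 in antagomiR-138 cells), so their order is not larger than the spread between samples, while the assembly factors lay above complex V in every antagomiR-138 sample. Complex IV was at 0.03, 0.02 and -0.03 in antagomiR-138 cells, within reach of its controls at -0.00, 0.00 and 0.02. Complex II, with 3 genes, was at -0.09, -0.13 and -0.17 in antagomiR-138 cells and at -0.03, 0.02 and 0.01 in the controls. These medians describe the classes and carry no test.

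**Figure D2:**
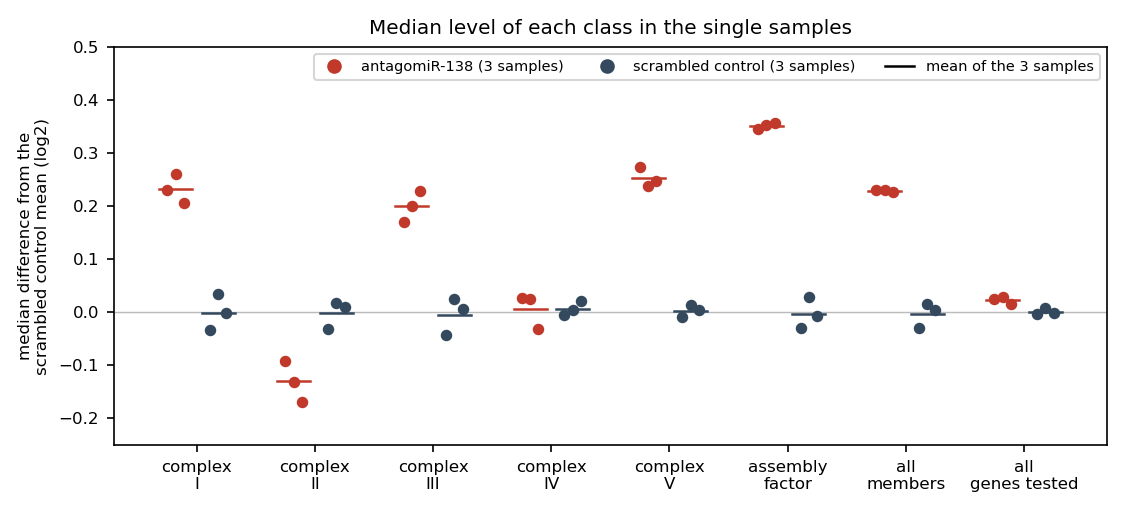
Median difference from the scrambled control mean (log2) of each class, of all 96 genes and of all 11426 genes tested, in each antagomiR-138 sample (red) and each scrambled control sample (dark blue). Points are samples and bars are means of 3 samples. The samples of the 2 groups are apart for complexes I, II, III and V and the assembly factors and overlap for complex IV.

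Complex I, which oxidises NADH and reduces ubiquinone, had 23 genes higher, 3 lower and 9 not past the test among 35. Its catalytic core, the subunits of the matrix arm that bring electrons from NADH to ubiquinone, was divided. Of 6 core genes tested, 2 were higher, 2 lower and 2 did not pass, with a median of -0.01. The accessory subunits, which surround the core and have no part in electron transfer, were mostly higher, with 21 of 29 higher, 1 lower and 7 not past the test and a median of 0.25. By name, 9 of 11 NDUFB genes and 9 of 12 NDUFA genes were higher, and 1 NDUFA gene was lower.

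The accessory subunit gene NDUFA7 showed the largest rise of complex I, with log2 signals of 10.03, 9.91 and 9.88 in antagomiR-138 cells and 9.18, 9.36 and 9.34 in scrambled control cells. Every antagomiR-138 sample lay above every control, and the difference was 0.65 ± 0.07 (SE, adjusted p = 0.000322, limma), or 1.57-fold. NDUFA1, a small membrane subunit needed for assembly of the membrane arm, was at 13.16, 13.25 and 13.28 in antagomiR-138 cells and at 12.52, 12.66 and 12.62 in the controls. It rose by 0.63 ± 0.06 (adjusted p = 0.00019, limma) with no overlap. NDUFAB1, the mitochondrial acyl carrier protein, was at 13.03, 12.96 and 13.05 against 12.41, 12.51 and 12.46 in the controls, a rise of 0.56 ± 0.06. NDUFA13, also known as GRIM-19, rose by 0.47 ± 0.06 and NDUFS5 by 0.42 ± 0.06. The remaining accessory genes that rose did so by 0.16 (NDUFC2) to 0.52 (NDUFB1).

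In the NADH-oxidising end of the complex the 3 measured core genes differed. NDUFV2, an iron-sulfur subunit, was at 12.51, 12.58 and 12.57 in antagomiR-138 cells and at 12.04, 11.93 and 11.89 in the controls, so that all antagomiR-138 samples were higher. It rose by 0.60 ± 0.06 (adjusted p = 0.000198, limma). Its partner NDUFV1, which binds NADH and the flavin, was at 10.97, 11.07 and 11.04 in antagomiR-138 cells and at 11.30, 11.17 and 11.18 in the controls. The groups did not overlap and NDUFV1 fell by 0.19 on the log2 scale, with an SE of 0.06 and an adjusted p of 0.0332 (limma), but this call was lost when antagomiR-138 replicate 1, 2 or 3 or scrambled control replicate 1 or 3 was left out (-0.21 to -0.15, adjusted p 0.0524 to 0.0937, limma). NDUFS1, the largest iron-sulfur subunit, was at 4.94, 5.83 and 5.23 in antagomiR-138 cells, where only 1 of the 3 arrays was above background, and at 5.84, 6.11 and 5.98 in the controls. Its difference was -0.65 ± 0.21 (adjusted p = 0.0349, limma) and the call was lost when antagomiR-138 replicate 1 or 3 or any scrambled control replicate was left out (-0.71 to -0.45, adjusted p 0.0547 to 0.0962, limma). NDUFS1 stood close to background, and its call was lost under 10 of 17 alternatives.

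Among the core genes that pass electrons to ubiquinone, NDUFS3 rose by 0.36 ± 0.06 (adjusted p = 0.00131, limma), and NDUFS7 and NDUFS8 did not pass the test, with differences of -0.06 and 0.05 (95% confidence intervals -0.20 to 0.08 and -0.10 to 0.19). The single accessory gene that fell was NDUFA5, which lies in the arm that juts into the matrix. It was at 6.40, 5.74 and 5.76 in antagomiR-138 cells and at 6.73, 6.95 and 6.86 in the controls. Of the antagomiR-138 samples, replicate 1 was nearest to the controls, though no sample overlapped, and NDUFA5 fell by 0.88 with an SE of 0.18 (adjusted p = 0.00457, limma).

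**Figure D3:**
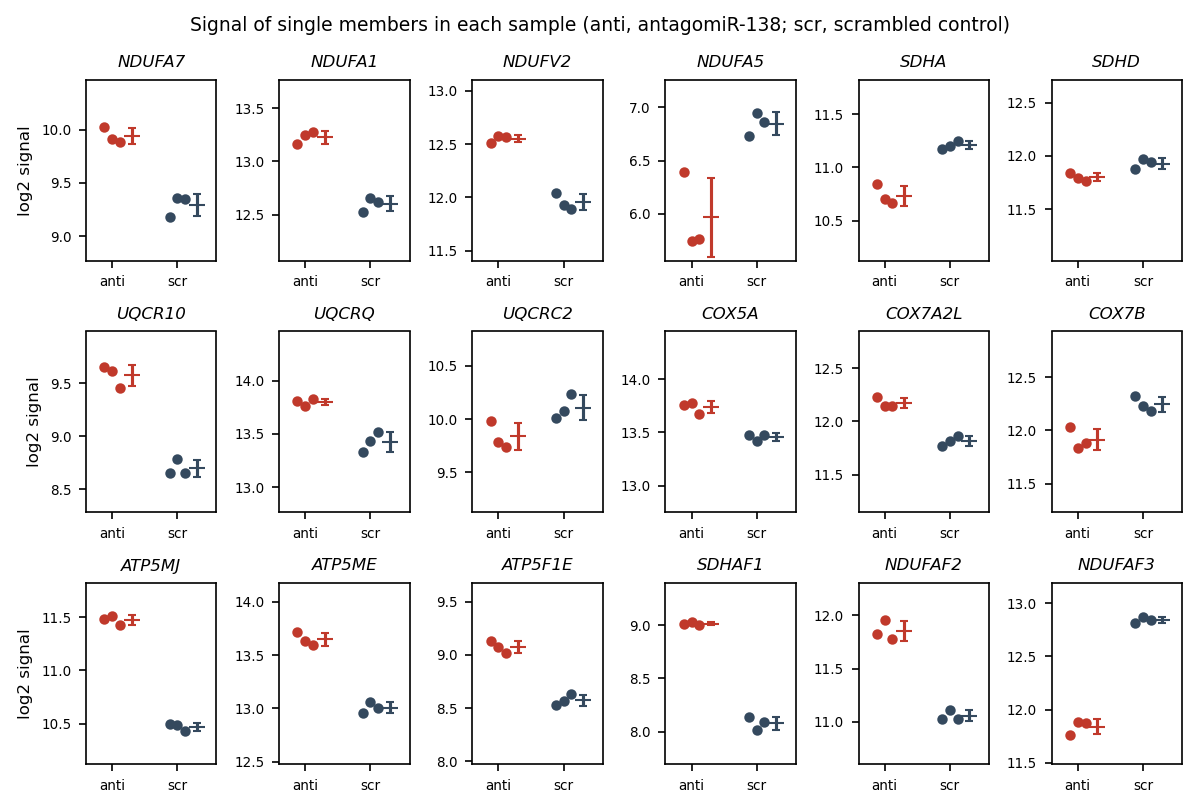
Log2 signal of 18 genes in each sample, with the 3 antagomiR-138 samples (anti, red) left of the 3 scrambled control samples (scr, dark blue). Points are samples, and the bar to the right of each group is the mean with the SD of 3 samples. Every panel spans the same height of 1.7 log2 units, and the groups do not overlap in any of the 18 genes.

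Complex II, succinate dehydrogenase, was the class with the lowest median, which with 3 measured subunits was the value of SDHD alone. On the probes that stood for the genes SDHA fell, SDHC rose and SDHD did not pass, but the probes of SDHC disagreed. SDHA, the flavoprotein that oxidises succinate, was at 10.84, 10.70 and 10.66 in antagomiR-138 cells and at 11.18, 11.20 and 11.25 in scrambled control cells. It fell by 0.47 with an SE of 0.07 (adjusted p = 0.000819, limma), and its other entering probe also read lower, by -0.32 ± 0.11. SDHA has transcribed pseudogenes of near-identical sequence, whose RNA its probes may also catch. The membrane anchor SDHD was at 11.84, 11.80 and 11.76 against 11.87, 11.97 and 11.94 in the controls. All antagomiR-138 samples were below all controls, but the difference of -0.13 ± 0.06 did not pass the test (adjusted p = 0.0856, limma).

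The other membrane anchor, SDHC, gave opposite answers on its 2 probes. The probe that stood for the gene was at 10.73, 10.74 and 10.69 in antagomiR-138 cells and at 10.37, 10.37 and 10.32 in the controls, a rise of 0.37 ± 0.05 (adjusted p = 0.000859, limma). The other probe was at 8.41, 8.36 and 8.41 against 9.08, 9.04 and 9.04 in the controls, a difference of -0.66 ± 0.06 that also passed (adjusted p = 0.00017 over all entering probes, limma). On either probe the replicates differed by far less than the groups, so the disagreement was outside the spread between samples. The direction of SDHC as a gene was therefore not settled by these arrays.

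All 4 assembly factors of complex II rose. SDHAF1, which helps to place iron-sulfur clusters in the complex, was at 9.01, 9.03 and 9.0 in antagomiR-138 cells and at 8.13, 8.01 and 8.09 in the controls. The antagomiR-138 samples agreed closely and lay well above the controls, a rise of 0.94 ± 0.06 (adjusted p = 2.11e-05, limma), or 1.91-fold. SDHAF2, needed to attach the flavin to SDHA, was at 11.08, 11.30 and 11.23 against 10.88, 10.82 and 10.76 and rose by 0.38 ± 0.07. SDHAF3, another iron-sulfur factor, rose by 0.56 ± 0.07, and SDHAF4, which binds SDHA before it joins the complex, by 0.60 ± 0.08. None of the 4 overlapped between groups. Their median was 0.58, against 0.30 for the 7 complex I factors and 0.26 for the 8 complex IV factors of the set that were tested.

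Complex III had 5 genes higher, 1 lower and 3 not past the test among 9. The 5 called higher, on the probes that stood for them, were all small subunits, UQCR10, UQCRB, UQCRQ, UQCRH and UQCRHL. The small subunit gene UQCR11 and the core and haem-bearing subunits did not rise. UQCR10 was at 9.65, 9.61 and 9.45 in antagomiR-138 cells and at 8.65, 8.79 and 8.66 in the controls. It rose by 0.87 ± 0.08 (adjusted p = 8.87e-05, limma), or 1.83-fold, and its other 2 probes gave 0.60 and 0.55. UQCRQ was at 13.81, 13.76 and 13.82 against 13.33, 13.43 and 13.51 in the controls and rose by 0.38 ± 0.07 with no overlap. The hinge protein gene UQCRH rose by 0.29 ± 0.05 and its near-identical copy UQCRHL by 0.20 ± 0.05, and probes for these genes may read both.

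CYC1, which carries the haem of cytochrome c1, was at 12.23, 12.29 and 12.17 in antagomiR-138 cells and at 12.28, 12.32 and 12.35 in the controls. The groups overlapped, and the difference was -0.09 ± 0.06 (95% confidence interval -0.23 to 0.05). Of the core proteins, UQCRC1 differed by -0.02 and did not pass, and UQCRC2 was at 9.98, 9.79 and 9.74 against 10.01, 10.08 and 10.24 in the controls. UQCRC2 fell by 0.27 with an SE of 0.09 (adjusted p = 0.0379, limma), although the call was lost when antagomiR-138 replicate 2 or 3 or scrambled control replicate 2 or 3 was left out (-0.29 to -0.21, adjusted p 0.0702 to 0.113, limma). Counting all alternatives, the UQCRC2 call was lost under 9 of 18. UQCRB, which lies near the ubiquinone site, was another gene with contrary probes. The probe that stood for it was at 9.10, 9.07 and 9.02 against 8.59, 8.60 and 8.46 in the controls, a rise of 0.51 ± 0.06, while a second probe read -0.49 ± 0.11 (adjusted p = 0.00799 over all entering probes, limma) and a further one -0.36 ± 0.15, which did not pass. The direction of UQCRB as a gene was therefore not settled. With the mean of each gene's probes in place of 1 probe, the median of complex III was -0.00.

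**Figure D4:**
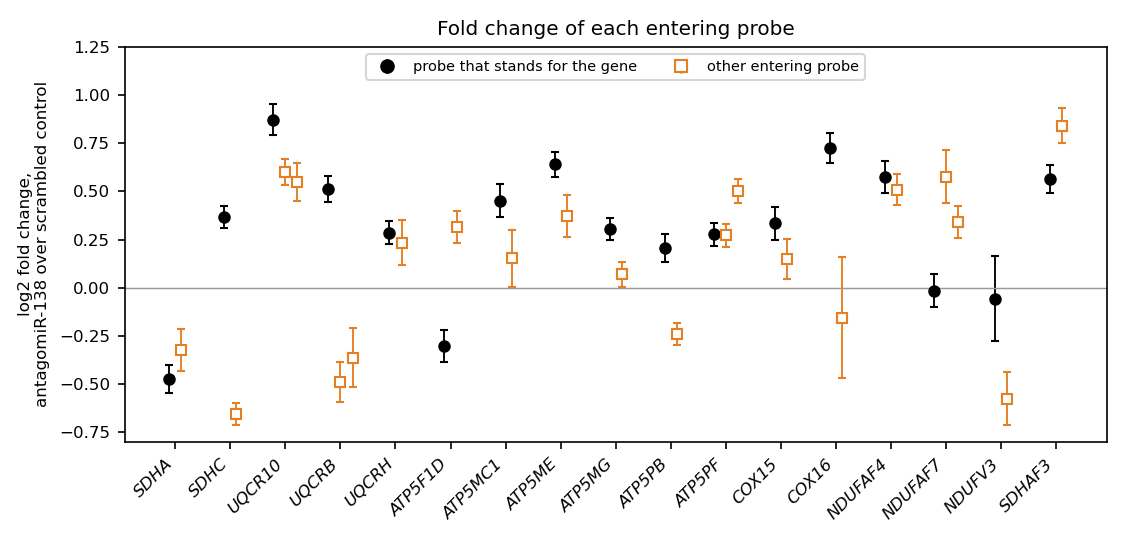
Log2 fold change of antagomiR-138 over scrambled control cells for each entering probe of 17 genes with several, as estimate and standard error from limma with 3 samples a group. Filled black circles are the probes that stand for the genes and open orange squares the other probes of the same gene. SDHC, UQCRB and ATP5F1D have called probes on both sides of 0, while all 3 probes of UQCR10 lie above it.

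Probes disagreed in only part of the set. Of 25 genes with more than 1 entering probe, 6 had probes of opposite sign (ATP5F1D, ATP5PB, COX16, NDUFAF7, SDHC and UQCRB), and 3 of these, ATP5F1D, SDHC and UQCRB, had called probes in both directions when p was adjusted over all entering probes. ATP5PB was close to this, since it rose by 0.21 in the test over genes (adjusted p = 0.0362, limma) while its other probe read -0.24 ± 0.06 (adjusted p = 0.0121 over all entering probes, limma). NDUFAF7 did not pass on the probe that stood for it (-0.015), but its other probes read 0.58 ± 0.14 and 0.34 ± 0.08. Both were called higher (adjusted p = 0.0127 and 0.0126 over all entering probes, limma). NDUFV3 did not pass on its brighter probe (-0.06), while its other probe was called lower, at -0.58 ± 0.14 (adjusted p = 0.012 over all entering probes, limma). Which transcript form each probe reads was not analysed here.

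Complex IV, cytochrome c oxidase, had few calls for its size. Of 12 genes tested 3 were higher, 1 was lower and 8 did not pass, so that 33.3% were called where 60.1% of all genes were. The 3 that rose were COX7A2L, COX5A and COX6C. COX7A2L, which joins complexes III and IV into supercomplexes, was at 12.23, 12.15 and 12.15 in antagomiR-138 cells and at 11.77, 11.82 and 11.86 in the controls, a rise of 0.36 ± 0.06 (adjusted p = 0.00158, limma). COX5A was at 13.76, 13.78 and 13.68 against 13.48, 13.42 and 13.48, a rise of 0.28 ± 0.06 (adjusted p = 0.00459, limma), and COX6C rose by the same 0.28 ± 0.06. None of the 3 overlapped between groups. COX7B was at 12.03, 11.83 and 11.88 in antagomiR-138 cells and at 12.32, 12.22 and 12.18 in the controls. All antagomiR-138 samples were below the controls, and COX7B fell by 0.33 with an SE of 0.07 (adjusted p = 0.00724, limma).

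Several other complex IV genes lay near 0. COX4I1 differed by 0.03 (95% confidence interval -0.13 to 0.19), COX6A1 by -0.02 (-0.18 to 0.14), COX7A2 by 0.01 (-0.14 to 0.16) and COX8A by 0.01 (-0.13 to 0.15). COX6B1 stood at -0.15 (-0.30 to 0.01, adjusted p = 0.0978, limma), and passed the test without antagomiR-138 replicate 3 (-0.20, adjusted p = 0.0424, limma). Several complex IV subunits have forms that are made in muscle, testis or lung or in low oxygen. Of these, COX4I2, COX6A2, COX7A1 and COX8C were not above background, and the dim COX7B2 was at 5.56, 5.89 and 5.66 in antagomiR-138 cells and at 6.03, 5.66 and 6.30 in the controls, overlapping groups with a difference of -0.30 ± 0.17 that passed only without scrambled control replicate 2 (-0.46, adjusted p = 0.0247, limma). Of the partners of these forms, COX4I1, COX6A1, COX7A2 and COX8A did not pass the test and COX7B, the partner of COX7B2, fell.

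Complex V, the ATP synthase, had 12 genes higher, 1 lower and 5 not past the test among 18. The strongest rise of the whole set was that of ATP5MJ, a small proteolipid of the membrane part. It was at 11.48, 11.51 and 11.42 in antagomiR-138 cells and at 10.50, 10.48 and 10.43 in the controls. The samples of each group lay within 0.1 of each other, and the rise of 1.00 ± 0.06 (adjusted p = 1.52e-05, limma) was a doubling on the linear scale, 2.00-fold. ATP5ME, subunit e, which helps synthase molecules to pair, was at 13.71, 13.63 and 13.60 against 12.96, 13.06 and 13.00 and rose by 0.64 ± 0.06 (adjusted p = 0.000132, limma). ATP5MF rose by 0.44 ± 0.06. Of 9 stalk and membrane genes tested, 6 were higher and none lower, with a median of 0.28, and 1 of the 6 was ATP5PB, whose other probe was called lower.

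The c ring, which turns as protons pass, is made of identical subunits encoded by 3 genes, and all 3 rose. ATP5MC3 was at 8.15, 8.06 and 8.0 in antagomiR-138 cells and at 7.57, 7.54 and 7.35 in the controls, a rise of 0.58 ± 0.08 (adjusted p = 0.000674, limma). ATP5MC1 was at 12.37, 12.16 and 12.16 against 11.80, 11.84 and 11.69, a rise of 0.45 ± 0.08 (adjusted p = 0.00252, limma), though its other probe gave 0.15 and did not pass. ATP5MC2 was at 11.23, 11.15 and 11.25 against 10.91, 11.02 and 11.09, a rise of 0.20 ± 0.07 (adjusted p = 0.0346, limma) that was lost when antagomiR-138 replicate 1 or 3 or scrambled control replicate 1 or 2 was left out (0.16 to 0.21, adjusted p 0.0713 to 0.0974, limma). The groups were apart for all 3 genes.

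The catalytic F1 head was less uniform. Its beta subunit gene ATP5F1B, whose protein carries the catalytic sites, differed by 0.05 (95% confidence interval -0.09 to 0.20) and the gamma shaft gene ATP5F1C by 0.07 (-0.07 to 0.20), and neither passed. ATP5F1A, the alpha subunit, rose by 0.22 ± 0.06 (adjusted p = 0.0188, limma). The small epsilon subunit gene ATP5F1E was at 9.13, 9.08 and 9.02 in antagomiR-138 cells and at 8.53, 8.56 and 8.63 in the controls, a rise of 0.50 ± 0.06 (adjusted p = 0.000384, limma), with the caution that an expressed copy, ATP5F1EP2, has much the same sequence. The delta subunit gene ATP5F1D was at 10.86, 11.06 and 10.88 against 11.18, 11.20 and 11.34 and fell by 0.31 with an SE of 0.08 (adjusted p = 0.0131, limma), but its other probe was at 9.17, 9.17 and 9.39 against 8.88, 8.93 and 8.99 and read 0.31 ± 0.08 (adjusted p = 0.0192 over all entering probes, limma). The direction of ATP5F1D was not settled. ATP5IF1, the inhibitor that stops the synthase from running backwards, rose by 0.29 ± 0.05.

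The assembly factors of complexes I and IV in the set also rose for the most part. NDUFAF2, which joins complex I late in its assembly, was at 11.82, 11.95 and 11.78 in antagomiR-138 cells and at 11.03, 11.12 and 11.03 in the controls, a rise of 0.79 ± 0.07 (adjusted p = 8.34e-05, limma). NDUFAF1, which acts on the membrane arm, rose by 0.59 ± 0.06. NDUFAF3 and NDUFAF4, which bind each other in the early matrix module, went opposite ways. NDUFAF3 was at 11.76, 11.89 and 11.87 in antagomiR-138 cells and at 12.81, 12.87 and 12.84 in the controls. The groups were 0.9 or more apart, and NDUFAF3 fell by 1.00 with an SE of 0.06 (adjusted p = 2.04e-05, limma), 2.00-fold, the deepest fall of the set. NDUFAF4 was at 10.20, 10.04 and 10.23 against 9.48, 9.61 and 9.66 and rose by 0.58 ± 0.08, on its other probe too.

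For complex IV, 5 of the 8 assembly factors in the set that were tested were higher and none lower. Of 33 assembly factors with other names, 11 were higher and 8 lower. COX16, which helps to build the copper-bearing subunit, was at 11.54, 11.48 and 11.48 in antagomiR-138 cells and at 10.84, 10.85 and 10.64 in the controls, a rise of 0.73 ± 0.07 (adjusted p = 0.000187, limma). A dim second COX16 probe, above background on 1 of 3 antagomiR-138 arrays, read -0.16 ± 0.32, and with the probes averaged COX16 stood at 0.28 and did not pass (adjusted p = 0.151, limma). The haem-making enzymes COX10 and COX15 act in turn on the haem of complex IV. COX10 was at 10.67, 10.71 and 10.74 against 10.08, 10.14 and 10.13, a rise of 0.59 ± 0.05 (adjusted p = 0.000113, limma), and COX15 rose by 0.33 ± 0.08. COX17, the copper chaperone, was higher in all antagomiR-138 samples, but its difference of 0.13 did not pass the test (adjusted p = 0.0721, limma).

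Genes of respiration that do not carry these symbols were called in both directions. So were all genes tested, of which 60.1% were called, 30.9% higher and 29.1% lower. Of 33 further assembly factors tested, 11 were higher (33.3%), 8 lower (24.2%) and 14 did not pass, with a median of 0.01. These shares were close to those of all genes. TIMMDC1, which helps to assemble the membrane arm of complex I, was at 7.29, 7.21 and 7.20 in antagomiR-138 cells and at 6.06, 6.10 and 6.35 in the controls, a rise of 1.07 ± 0.09, and the copper factor SCO1 rose by 0.58 ± 0.06. UQCC2, needed for cytochrome b of complex III, was at 10.49, 10.48 and 10.50 against 11.49, 11.57 and 11.43 and fell by 1.01, with an SE of 0.06. COA1 fell by 0.78.

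Of 15 genes for the mobile carriers cytochrome c and coenzyme Q, 4 were higher, 6 lower and 5 did not pass, with a median of 0.11. Called were thus 66.7%, against 60.1% of all genes. CYCS, cytochrome c itself, was at 7.57, 7.63 and 7.43 in antagomiR-138 cells and at 6.66, 6.20 and 6.31 in the controls, a rise of 1.15 ± 0.13 (adjusted p = 0.000248, limma) on a single probe, and CYCS has many pseudogenes of like sequence. PDSS1, which makes the tail of coenzyme Q, rose by 0.58 ± 0.08, while COQ7 and COQ8A, which act later in its synthesis, fell by 1.08 and 0.76.

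Genes that maintain and transcribe mitochondrial DNA had 6 of 14 higher, 2 lower and 6 not past the test, with a median of 0.21. The share called was 57.1%, near the 60.1% of all genes. TFAM, which packages mitochondrial DNA and starts its transcription, was at 9.67, 9.53 and 9.49 in antagomiR-138 cells and at 11.45, 11.25 and 11.29 in the controls. The groups were more than 1 log2 unit apart, and TFAM fell by 1.77 with an SE of 0.08 (adjusted p = 7.93e-06, limma), 3.41-fold. Its partners in transcription were higher. The initiation factor TFB2M was at 11.45, 11.25 and 11.30 against 10.54, 10.43 and 10.47, a rise of 0.85 ± 0.07, and the polymerase POLRMT was at 9.54, 9.50 and 9.50 against 8.56, 8.82 and 8.78, a rise of 0.79 ± 0.08. TFB1M, a methyltransferase of the mitochondrial ribosome, fell by 0.27 (adjusted p = 0.0447, limma), a call lost when antagomiR-138 replicate 1, 2 or 3 or scrambled control replicate 2 or 3 was left out (-0.31 to -0.19, adjusted p 0.0623 to 0.122, limma).

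Of 11 nuclear regulators of respiratory genes 9 were tested, and 2 were higher, 3 lower and 4 not past the test, with a median of -0.15. The share called was 55.6%, near the 60.1% of all genes. GABPA was at 7.72, 7.61 and 7.82 in antagomiR-138 cells and at 8.25, 8.40 and 8.44 in the controls and fell by 0.65 with an SE of 0.08 (adjusted p = 0.000529, limma), and SP1 fell by 0.55. The nuclear receptors PPARA and ESRRA rose by 0.90 ± 0.10 and 0.44 ± 0.09, with PPARA above background on 2 of 3 control arrays. YY1 differed by -0.15 (adjusted p = 0.168, limma) and the coactivator PPARGC1A by -0.36 (adjusted p = 0.108, limma), and neither passed. NRF1 and PPARGC1B did not enter the test.

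**Figure D5:**
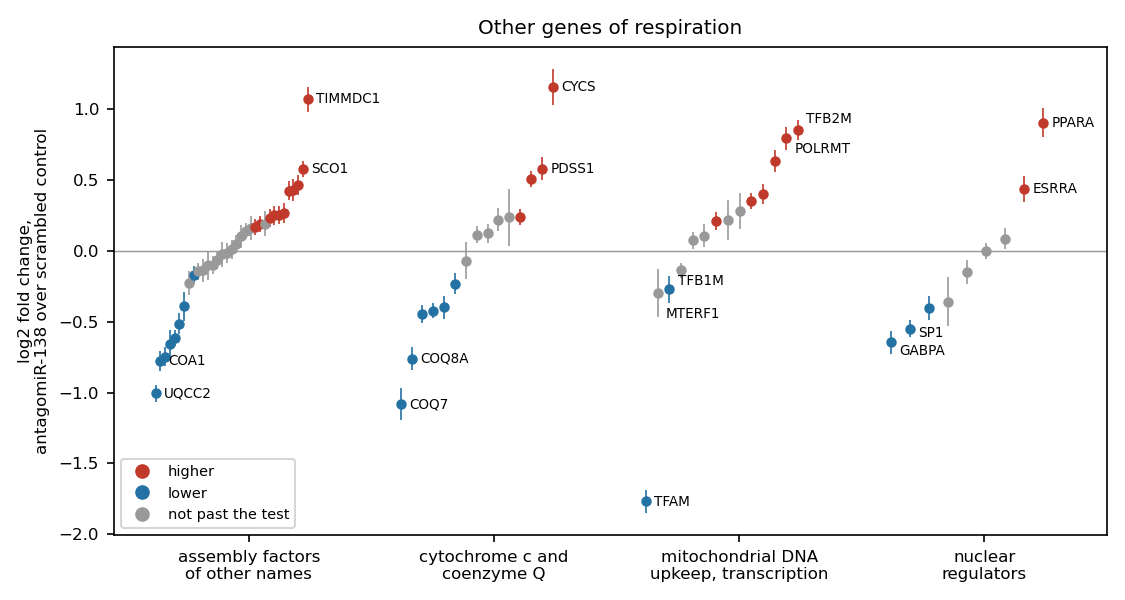
Log2 fold change of antagomiR-138 over scrambled control cells for genes of respiration outside the symbol rule, in 4 lists, as estimate and standard error from limma with 3 samples a group. Each point is a gene, ordered by its value within its list and coloured by its call (adjusted p under 0.05). Every list has called genes on both sides of 0, from TFAM at -1.77 to CYCS at 1.15. Of all genes tested, 30.9% were called higher and 29.1% lower.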

How the data were processed

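Per the labels, total RNA of 6 MDA-MB-231 samples was labelled with biotin and read on Illumina arrays with GenomeStudio (version 1.9.0). The authors deposited an unnormalized table of probe intensity with a detection p-value for each probe and array, and a normalized intensity table with no method given in the sources used here. The unnormalized intensities were background-corrected from the detection p-values (normexp, offset 16), quantile-normalized and put on the log2 scale with neqc in limma (version 3.58.1, R 4.3.3). Symbols came from GEO's platform annotation, updated to RefSeq, and 30113 probes had 1 gene, 8 several and 17201 none. Of 20051 entering probes 15182 had 1 gene, giving 11426 genes, each read on its entering probe of highest mean signal. Groups of 3 arrays were compared with limma (lmFit, eBayes), two-sided, with Benjamini-Hochberg adjustment. An exact permutation of 3 against 3 samples cannot go below p = 0.1, so none was used. Precision is limited by the number of arrays. The steps were tested on simulated data. The members and lists were chosen with earlier results of these data known. Named in the text were the 3 largest rises and falls of each class among called genes without overlap, the SDH subunits, CYC1, isoform partners, genes with contrary probes and the 2 largest rises and falls of each other list. Other members were named, after their values were seen, where they complete a group. The NRF1 core and the comparison over genes of like signal were added after seeing the data. Alternatives covered the background correction, normalization, the deposited normalized table, filters, probe rule, test, replicate numbers and each sample left out.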

Additional observations from a re-analysis of the deposited data

How the results depend on the processing

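All 57 genes called higher kept their direction under every alternative except when probes of a gene were averaged, where 54 of 57 did, and all 8 called lower kept it wherever they were tested except 1 under that averaging. The count of higher genes was 12 when at least 1.5-fold was also required, and 51 to 54 with a sample left out. The count of lower genes was 5 with median scaling, 5 with no detection filter, 3 when 1.5-fold was required, and 5 to 7 with a sample left out. The replicate numbers, which follow the order of the samples in each group, did not pair the samples (correlations of same-numbered deviations 0.00168, 0.0155 and 0.0526). With the number as a replicate block 52 genes were higher and 6 lower. Over all 11426 genes 2873 of 6863 calls met 1.5-fold, 1297 higher and 1576 lower, and the median of all genes was -0.0122 under cyclic loess. The median of the set was 0.19 under cyclic loess and 0.28 under median scaling. Under median scaling complex I was at 0.29, complex II at -0.0704, complex III at 0.27, complex IV at 0.0635, complex V at 0.32 and the assembly factors at 0.33. Under cyclic loess complex III was at 0.16, complex IV at -0.0361, complex V at 0.215 and the assembly factors at 0.28. With probes averaged complex III was at -0.00422, complex V at 0.216, the assembly factors at 0.30, SDHC at -0.15, UQCRB at -0.11 and ATP5F1D at 0.00474. Complex V was at 0.28 with detection p under 0.01 on all 6 arrays. The assembly factors were at 0.28 with an offset of 50, 0.30 with no background correction, 0.30 with no detection filter and 0.29 to 0.38 with a sample left out. The cause of these shifts was not tested, beyond the contrary probes of SDHC, UQCRB and ATP5F1D. Among the named genes, 842 values under alternatives kept their call and direction, 43 lost the call, 7 gained it and 3 reversed. Genes near background, NDUFS1, NDUFB4, ATP5MK and COX7B2 among them, limit what their signals can show.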
